A study of Mus musculus with 18 samples.

Results

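The cadherin superfamily was described here through 32 of the 55335 genes in the count matrices, taken by gene symbol. They were 15 cadherins (Cdh2, Cdh4, Cdh6 to Cdh13, Cdh18, Cdh19, Cdh20, Cdh22 and Cdh23), the multi-pass cadherins Celsr1 to Celsr3, the giant cadherins Fat1, Fat3, Fat4 and Dchs1, and 10 protocadherins that lie outside the clustered protocadherin array (Pcdh1, Pcdh7, Pcdh8, Pcdh9, Pcdh10, Pcdh15, Pcdh17, Pcdh18, Pcdh19 and Pcdh20). All 32 were found by symbol, and none was chosen by a measured value in the rule itself. RNA of single nuclei was sequenced from forebrains of mouse embryos at E14 (embryonic day 14), after fixed nuclei had been split and pooled through several rounds of barcoding. The 3 groups were wild type (WT), heterozygous (Het) and homozygous mutant (KO) embryos for the S710fsX frameshift allele of Myt1l, a transcription factor gene of neurons, with 3 embryos per genotype. The embryos came from crosses of heterozygous parents of a line bred to C57BL/6J mice, from banked tissue of 3 litters with mixed sexes, and the labels give no treatment. Each embryo was measured in 2 runs, which were summed, so that the animal was the replicate (n = 3 per genotype). The allele is carried in the germline, so every cell type of a KO embryo is mutant. In a summed class, fewer nuclei that express a gene and less RNA per nucleus cannot be told apart.

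Cadherins are calcium-dependent adhesion proteins of the cell surface, and the classical members bind mostly their own kind or close relatives on the neighbouring cell and connect through catenins to actin. In the developing forebrain they hold the ventricular surface together, sort neurons into layers and nuclei, and contribute to the choice of synaptic partners, and their combinatorial expression has long been used to outline divisions of the brain. Protocadherins bind more weakly and also signal, whereas Celsr, Fat and Dachsous proteins act in planar polarity and growth.

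After filtering, 194658 nuclei remained, with 14801 to 26068 nuclei and 42850185 to 74129847 UMIs per animal. A UMI marks 1 captured transcript, and values are given as CPM, a gene's UMIs scaled to a fixed total of UMIs for the class or cluster in an animal. The 32 genes together held 0.967 to 1.03% of the UMIs of an animal. Nuclei were clustered without these 32 genes, and clusters were named from marker lists, each name written as "-like". Classes were tested where each animal gave 20 nuclei or more. These 7 were inhibitory neuron-like (49888 nuclei), excitatory neuron-like (47652), Cajal-Retzius-like (2026) and radial glia-like nuclei (29402), progenitors called inhibitory progenitor-like (2229) and excitatory intermediate progenitor-like (17596), and cluster 46 (401). Cluster 46 passed the choroid plexus marker list with 5 of 6 markers, but its leading genes were Rspo2, Rspo1, Lmx1a and Wnt3a, with Ttr behind them, so it is called by its number. No name was given to a further 22.6% of nuclei. Het 1 stood apart, since all 739 diencephalic neuron-like nuclei came from it and 0 of them from the other 8 animals. These nuclei enter no class or cluster tested here. WT 3 was the only animal with Xist (371 CPM, against at most 0.684 CPM in the others), which matters for the X-linked Pcdh19 and Pcdh11x. In run 1 a separate genotype tag reads WT for every library and conflicts with the titles, from which the groups were taken. Myt1l itself was at 2071 ± 139 CPM in the excitatory neuron-like nuclei of WT, 2311 ± 130 CPM in Het and 2525 ± 175 CPM in KO (SD, n = 3), and was not lower in KO (log2 change 0.31, edgeR adjusted p = 0.102). It was called higher in KO in clusters 4, 7, 12, 31, 34, 35, 36, 37 and 44, from 0.40 on the log2 scale in cluster 37 (edgeR adjusted p = 0.0118) to 0.80 in cluster 36 (1.84e-06), and not in cluster 28 (0.44, adjusted p = 0.0638). Counts per gene cannot show a frameshift, so they do not check the labels. The study describes the samples as 3 biological replicates per genotype, and p-values measure the spread between these embryos.

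Classes of nuclei differed in which cadherins were highest. Among the classical type I genes, Cdh2 (N-cadherin, the main cadherin of the neuroepithelium) was highest in radial glia-like nuclei at 1799 ± 198 CPM (SD, n = 9 animals). It did not fall below 946 CPM in the mean of any tested class, and no pair of neighbouring classes was apart over the 9 animals. In named classes too small to test, pooled over animals, Cdh2 ran from 48.9 CPM (260 microglia and macrophage-like nuclei) to 3017 CPM (63 endothelial-like nuclei). By class mean, Cdh4 (R-cadherin) was highest in Cajal-Retzius-like nuclei, the early marginal zone neurons that make reelin, at 1268.5 ± 86.7 CPM against 568 CPM in excitatory neuron-like nuclei, and the 9 animals of the first class lay above all 9 of the second. By single clusters Cdh4 was highest in cluster 19, radial glia-like nuclei at 1615 ± 121 CPM, with animals apart from the Cajal-Retzius-like cluster. By class mean the type II gene Cdh7 was also highest in Cajal-Retzius-like nuclei (222 ± 34.1 CPM against 41.2 CPM in inhibitory neuron-like nuclei, animals apart). By single clusters it overlapped the unnamed cluster 7, which was at 156 ± 19.6 CPM. The giant cadherin Fat3 was highest by class mean in Cajal-Retzius-like nuclei as well (3264 ± 167 CPM against 2010 CPM in cluster 46, animals apart). Levels are compared between classes for 1 gene at a time, and not between genes.

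Class means of progenitors and neurons differed in several members. Cdh20 had its highest class mean in radial glia-like nuclei at 156 ± 13.1 CPM, 3.50 times its level in inhibitory neuron-like nuclei, and the animals did not overlap. Single clusters of these classes did overlap, since Cdh20 was at 269 ± 23.03 CPM in the radial glia-like cluster 2 and 264 ± 30.2 CPM in the inhibitory neuron-like cluster 8. Celsr1, which carries planar polarity in epithelia, was at 442 ± 40.2 CPM in excitatory intermediate progenitor-like and 371 CPM in radial glia-like nuclei, which overlapped, and at 37.6 CPM in excitatory neuron-like nuclei. Celsr3, which is known for its role in axon tracts, had the opposite order, with 5.27 CPM in radial glia-like and 87.8 ± 9.14 CPM in excitatory neuron-like nuclei. Cdh8 had its highest class mean in excitatory intermediate progenitor-like nuclei at 948 ± 82.2 CPM and Pcdh7 likewise at 1290 ± 167 CPM, both apart from the next class. Single clusters went past the Cdh8 class mean, with 2757 CPM in the unnamed cluster 25, 2261 CPM in the inhibitory neuron-like cluster 31 and 1638 CPM in the excitatory neuron-like cluster 10. Pcdh7 was at 2182 ± 242 CPM in cluster 13 and 186 CPM in cluster 41, both excitatory intermediate progenitor-like, and the inhibitory neuron-like cluster 24, at 2127 ± 220 CPM, overlapped the first of them. Fat1 was at 195 ± 9.68 CPM in radial glia-like and 10.2 CPM in excitatory neuron-like nuclei. Inhibitory neuron-like clusters varied, with Fat1 at 162 CPM in cluster 30, 127 CPM in cluster 8 and 9.92 CPM in cluster 0. The radial glia-like clusters ran from 163 to 229 CPM.

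Excitatory neuron-like nuclei held the highest class mean of 6 members. Cdh13 (T-cadherin, which is tied to the membrane by a lipid anchor and has no cytoplasmic tail) was at 2147 ± 122 CPM there and 49.3 CPM in radial glia-like nuclei. Cdh12 was at 546 ± 64.2 CPM, 2.73 times its level in the next class, and Pcdh9 at 4397 ± 254 CPM, 2.42 times the next. Both, and Cdh13, had animals apart from the next class, as did Fat4 (353 ± 16.5 CPM against 265 CPM in radial glia-like nuclei). Over the excitatory neuron-like clusters Fat4 ran from 121 to 628 CPM, and it was at 361 CPM in the radial glia-like cluster 19. Pcdh9 ran from 1859 to 7900 CPM over them and was at 4498 CPM in the inhibitory neuron-like cluster 33. Cdh13 ran from 323 to 4009 CPM over the excitatory neuron-like clusters and was at 683 CPM in the inhibitory neuron-like cluster 1. Cdh12 ran from 45.9 to 2492 CPM over them and was at 376 CPM in the inhibitory neuron-like cluster 30. Cdh11 (296 ± 21.3 CPM) overlapped cluster 46, and Celsr3 overlapped the inhibitory progenitor-like class. Inhibitory neuron-like nuclei held the highest class mean of 7 members, namely Cdh9, Cdh18, Cdh22, Cdh23, Pcdh1, Pcdh8 and Pcdh10, of which Cdh9 alone (31.0 ± 6.89 CPM against 10.8 CPM in excitatory neuron-like nuclei) had animals apart from the next class. By single clusters Pcdh10 was highest in the radial glia-like cluster 19 (360 CPM, against 279 CPM in the inhibitory neuron-like cluster 30) and Cdh23 in the unnamed cluster 44 (47.2 CPM), each overlapping the next cluster. Over all 32 members the tested class with the highest mean stood apart from the next tested class in 12. Of these 12, Pcdh9 and Cdh8 were higher in the diencephalic neuron-like nuclei of Het 1 (6723 and 1055.5 CPM). Pcdh7 and Cdh20 were higher in the 69 oligodendrocyte progenitor-like nuclei (1427 and 367 CPM, pooled over animals). The others of the 12 were not exceeded in a class too small to test. Outside the 12, several members were also higher in such a small class than in any tested class. In those 69 nuclei Pcdh15 was at 4307 CPM, Cdh10 at 481 CPM, Pcdh17 at 472 CPM and Pcdh10 at 245 CPM. In mural and fibroblast-like nuclei Cdh11 was at 797 CPM and Pcdh18 at 416 CPM. Pcdh1 was at 107 CPM in the 63 endothelial-like nuclei, from 20 UMIs, against 16.3 CPM in inhibitory neuron-like nuclei. The class with the highest mean was the same in run 1 alone for 23 of the 32 members and in run 2 alone for 29. Cdh19, a cadherin of Schwann cell precursors, was at no more than 1.88 CPM in any tested class and 9.60 ± 4.37 CPM in its highest tested cluster, the unnamed cluster 18. In the 69 oligodendrocyte progenitor-like nuclei, too few to test, it was at 109 CPM pooled over animals, from 24 UMIs. Pcdh20 was at no more than 4.29 CPM in any class and 14.9 ± 5.16 CPM in its highest, the excitatory neuron-like cluster 40.

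**Figure D1:**
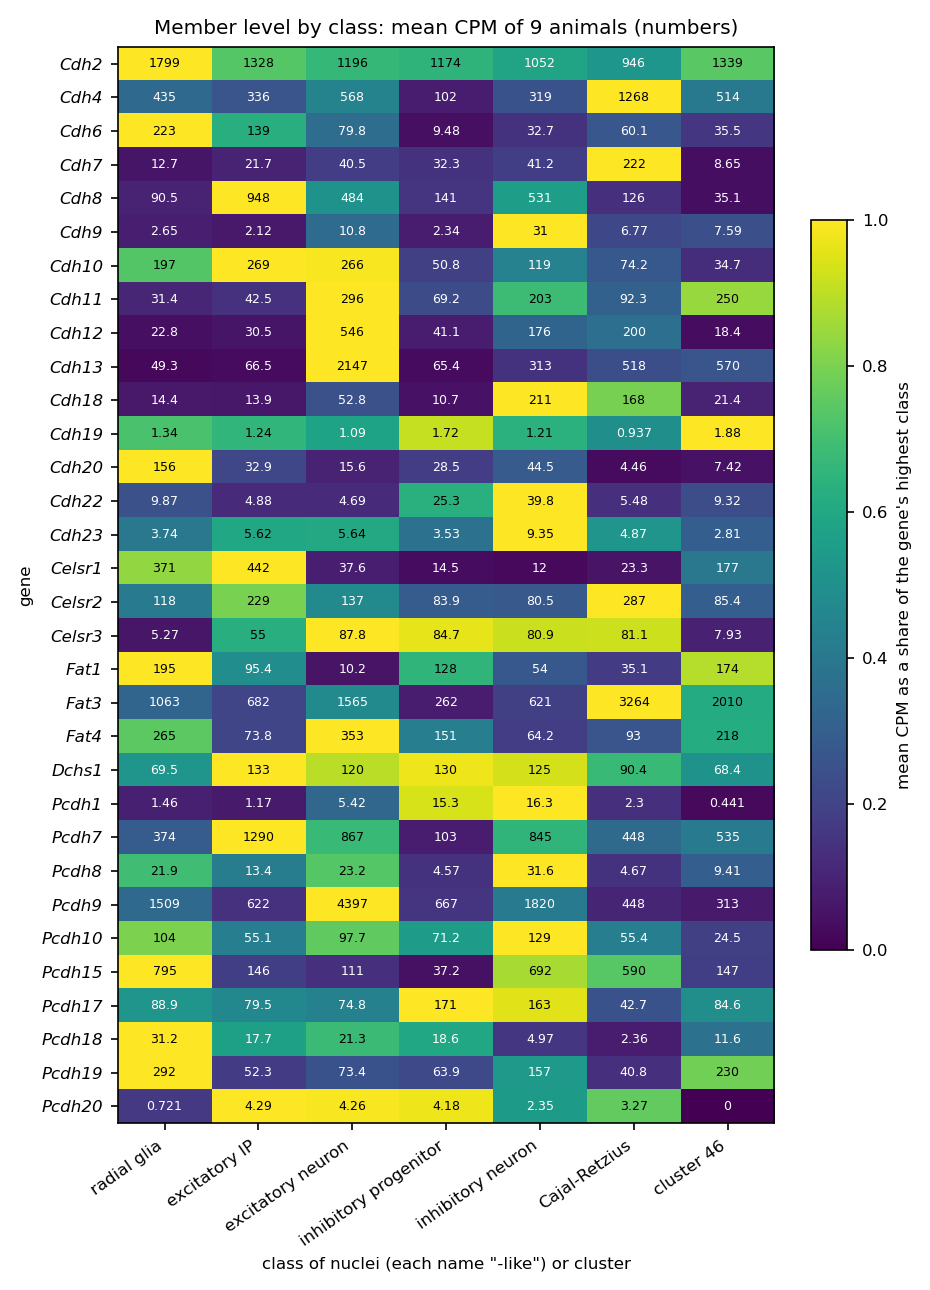
Mean CPM over 9 animals of each of the 32 genes (rows) in 6 named classes of nuclei and cluster 46 (columns), with colour giving the share of that gene's highest class mean. Cdh13, Cdh12 and Pcdh9 are brightest in excitatory neuron-like nuclei, Cdh4, Cdh7 and Fat3 in Cajal-Retzius-like nuclei, and Cdh2 is above 900 CPM in every column shown.

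Within classes, single clusters carried much higher levels than the class mean. Cdh10 reached 1376 ± 251 CPM (SD, n = 9) in cluster 35, excitatory neuron-like nuclei led by Il1rapl2, Unc13c and Nr4a2, against 601 CPM in the next cluster, with animals apart. Cdh12 reached 2492 ± 181 CPM in cluster 40, excitatory neuron-like nuclei led by 4930467D21Rik, Rasgrf1 and Cemip, against 1345 CPM in the next, with animals apart. Cdh6, a type II cadherin, reached 811 ± 109 CPM in cluster 19, radial glia-like nuclei led by Hgf, and was 20.03 times its median over the 43 tested clusters. Cdh18 reached 710 ± 119 CPM in cluster 9, inhibitory neuron-like nuclei led by Prdm12, which was 36.3 times its median. Cdh9 reached 95.6 ± 24.3 CPM in cluster 30, inhibitory neuron-like nuclei led by Ebf1, Rarb and Ikzf1, close to its 75.4 ± 29.9 CPM in cluster 35, and these overlapped. Cdh2 and Dchs1 varied less over the tested clusters, from 735 to 2506 CPM and from 54.0 to 189 CPM.

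The comparison of KO with WT asked which adhesion genes change in embryos with only the mutant allele. In excitatory neuron-like nuclei all 32 members could be tested, and Cdh9, a type II cadherin known for its role in synapse specificity, was the 1 that passed the test (adjusted p under 0.05 and a log2 change beyond 0.2). Of all 18384 genes tested in this class, 1.33% were called. Cdh9 was at 18.7, 11.0 and 12.9 CPM in WT 1 to 3, at 11.7, 8.11 and 11.7 CPM in Het 1 to 3 and at 7.77, 7.95 and 7.72 CPM in KO 1 to 3, from 102 to 265 UMIs per animal. All KO animals lay below all WT animals, and the Het animals overlapped WT but not KO. Cdh9 fell in KO by 0.82 on the log2 scale (SE 0.175, edgeR quasi-likelihood test, Benjamini-Hochberg adjusted p = 0.0379). In run 1 alone its log2 change was -0.20 (adjusted p = 0.939) and in run 2 alone -0.93 (adjusted p = 0.0441). With the same weight for each cluster in every animal it was -0.59 (limma, adjusted p = 0.0800). The call was also lost without WT 1 (adjusted p = 0.112), WT 3 (0.0871), Het 3 (0.0543), KO 1 (0.0860), KO 2 (0.137) or KO 3 (0.0802), with the change between -0.60 and -0.97 in all leave-one-out fits.

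The genes next in order missed the threshold. Cdh10, a close relative of Cdh9, was at 327, 272 and 282 CPM in WT 1 to 3, at 271, 288 and 264 CPM in Het 1 to 3 and at 251, 217 and 220 CPM in KO 1 to 3. Its KO animals lay below its WT animals, with a log2 change of -0.33 (SE 0.0772, adjusted p = 0.0560). In run 1 alone it was -0.13 (adjusted p = 0.869) and in run 2 alone -0.39 (adjusted p = 0.0512). Cluster 35, where Cdh10 was highest, held 0.929, 0.593 and 0.736% of the nuclei of WT 1 to 3 and 0.581, 0.319 and 0.529% of those of KO 1 to 3, and with the same weight for each cluster in every animal the log2 change of Cdh10 was -0.17 (limma, adjusted p = 0.367). Pcdh1, a delta protocadherin, was at 6.51, 6.46 and 6.32 CPM in WT 1 to 3, at 4.82, 5.11 and 6.22 CPM in Het 1 to 3 and at 4.45, 4.12 and 4.74 CPM in KO 1 to 3, a log2 change of -0.52 (SE 0.131, adjusted p = 0.0775) with KO below WT. Pcdh19, an X-linked delta protocadherin, was at 88.4, 76.9 and 76.6 CPM in WT 1 to 3 and at 62.9, 58.3 and 71.6 CPM in KO 1 to 3, a log2 change of -0.30 (adjusted p = 0.0928). Its KO animals again lay below its WT animals. An unadjusted p under 0.05 was found for 10 of 32 members (31.3%) and for 13.1% of all genes tested, and in 8 of 32 members (25.0%) the KO animals did not overlap the WT animals, against 17.4% of all genes. The members' median log2 change was -0.053, against -0.0094 for all genes, and the median size of the change was 0.124 for the members and 0.125 for all genes.

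**Figure D2:**
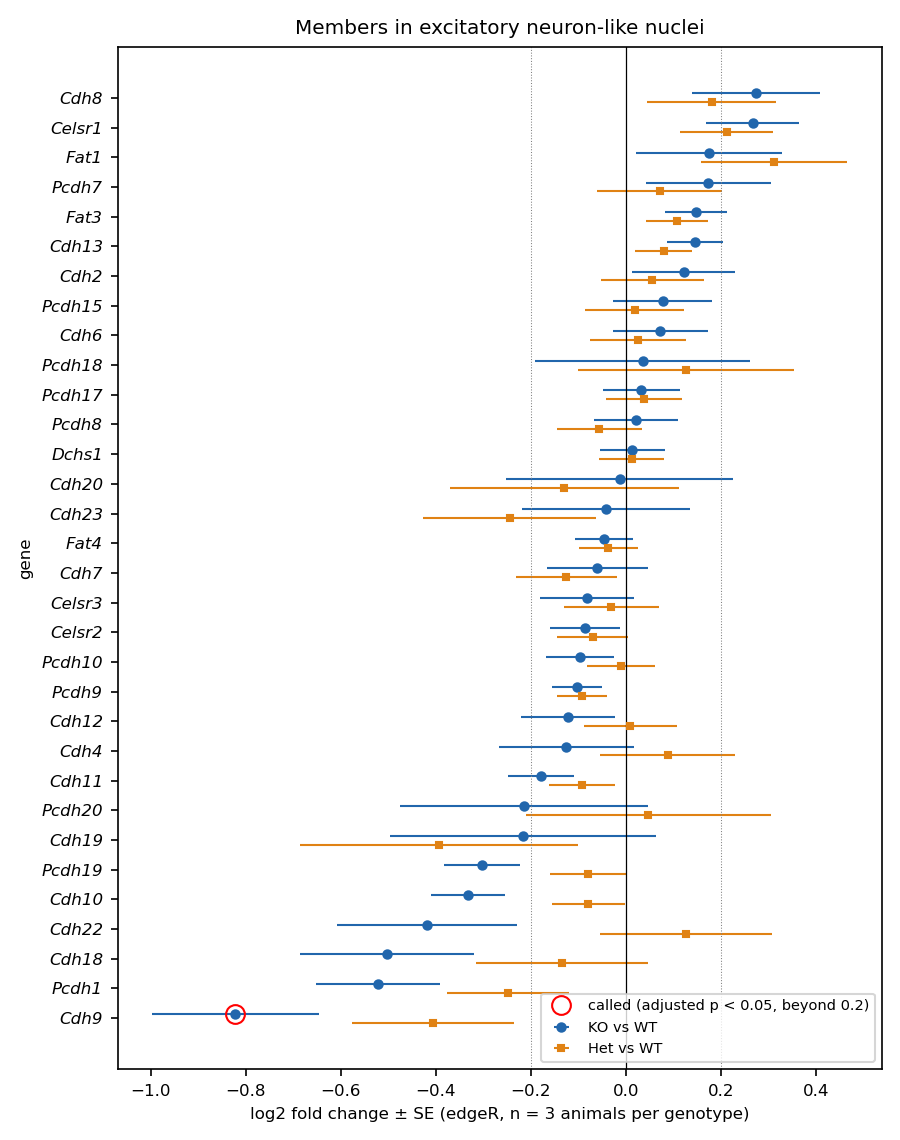
Log2 fold change with its standard error (edgeR, n = 3 animals per genotype) of the 32 genes in excitatory neuron-like nuclei, KO against WT (circles) and Het against WT (squares), ordered by the KO value. Cdh9 is the only gene ringed as called, at -0.82, and its Het value lies at -0.41.

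Embryos with the same replicate number deviated together from their group means, so the numbers were taken as pairs. The labels do not state this pairing, which was read from these same data. A fit with the replicate number as a block changed the count of calls. It called 7 of the 32 members in excitatory neuron-like nuclei (21.9%), against 6.49% of all genes in that fit. Cdh9 fell by 0.80 on the log2 scale (SE 0.125, edgeR adjusted p = 0.000388), Cdh10 fell by 0.33 (SE 0.0580, adjusted p = 0.00116), Pcdh1 fell by 0.53 (SE 0.133, adjusted p = 0.0183) and Pcdh19 fell by 0.30 (SE 0.0656, adjusted p = 0.00730). Cdh18 fell by 0.50 in the same fit (SE 0.101, adjusted p = 0.00415), from 61.2 ± 17.7 CPM in WT to 42.3 ± 9.32 CPM in KO (SD, n = 3), although its animals overlapped. Celsr1 and Cdh8 rose, by 0.26 (SE 0.0642, adjusted p = 0.0164) and 0.26 (SE 0.0712, adjusted p = 0.0317), also with overlapping animals. Cdh18, Celsr1 and Cdh8 were called with the block in no single excitatory neuron-like cluster. In the unnamed cluster 7 the block called Cdh18 lower in KO (log2 change -1.03, edgeR adjusted p = 0.0136), with animals apart, where it called 0.839% of all genes. Cdh8 also differed between these clusters, from 57.6 CPM in cluster 35 to 1638 CPM in cluster 10. DESeq2 without the block called 3 of the 32 members (9.38%), against 2.03% of all genes in that fit, namely Cdh9 (adjusted p = 0.00108), Cdh10 (0.0111) and Pcdh19 (0.0482).

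Clusters resolved these changes further and added others of the opposite sign. Over 43 clusters and 1147 tests of members, 11 were called (0.959%), against 0.295% of all 425261 gene tests, and they fell on 9 members in 6 clusters, with 5 higher and 6 lower in KO. All but 1 of these clusters were excitatory neuron-like or the unnamed cluster 36. The replicate block called all 11 again and 29 in all (2.53%), of which 8 were higher and 21 lower in KO, against 0.794% of gene tests. Clusters hold different nuclei of the same animals, so they are not independent samples.

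Cdh9 moved most in cluster 36, unnamed nuclei led by Tfap2d, Gm28756 and Tafa1, where 1.91% of all genes were called. It was at 43.3, 25.2 and 18.3 CPM in WT 1 to 3, at 20.8, 13.5 and 17.1 CPM in Het 1 to 3 and at 3.68, 2.39 and 8.26 CPM in KO 1 to 3, from 4 to 96 UMIs per animal. The WT and KO animals were far apart and the Het animals overlapped the lowest WT animal. Cdh9 fell by 2.42 on the log2 scale (SE 0.355, edgeR adjusted p = 0.000392), and the call was kept in all 9 leave-one-out fits. It was lower in both runs, at -1.13 in run 1 (22 UMIs in WT and 9 in KO) and -2.74 in run 2 (178 and 20 UMIs), as log2 ratios of pooled CPM with no test.

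The same gene fell in cluster 34, excitatory neuron-like nuclei led by Hs3st3b1, Rgs6 and Nfe2l3, where 2.01% of all genes were called. Cdh9 was at 22.9, 20.5 and 20.2 CPM in WT 1 to 3, at 20.02, 19.3 and 15.3 CPM in Het 1 to 3 and at 9.45, 11.0 and 12.01 CPM in KO 1 to 3. The KO animals stood below all others, and the log2 change was -0.93 (SE 0.174, edgeR adjusted p = 0.0104). Without KO 2 the adjusted p was 0.0510. Cdh9 was tested in 5 of the 10 excitatory neuron-like clusters and its log2 change was negative in all 5, from -1.21 to -0.20, with 1 call. In cluster 35, where its level was highest among them, the log2 change was -0.26 (SE 0.312, adjusted p = 0.795).

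**Figure D3:**
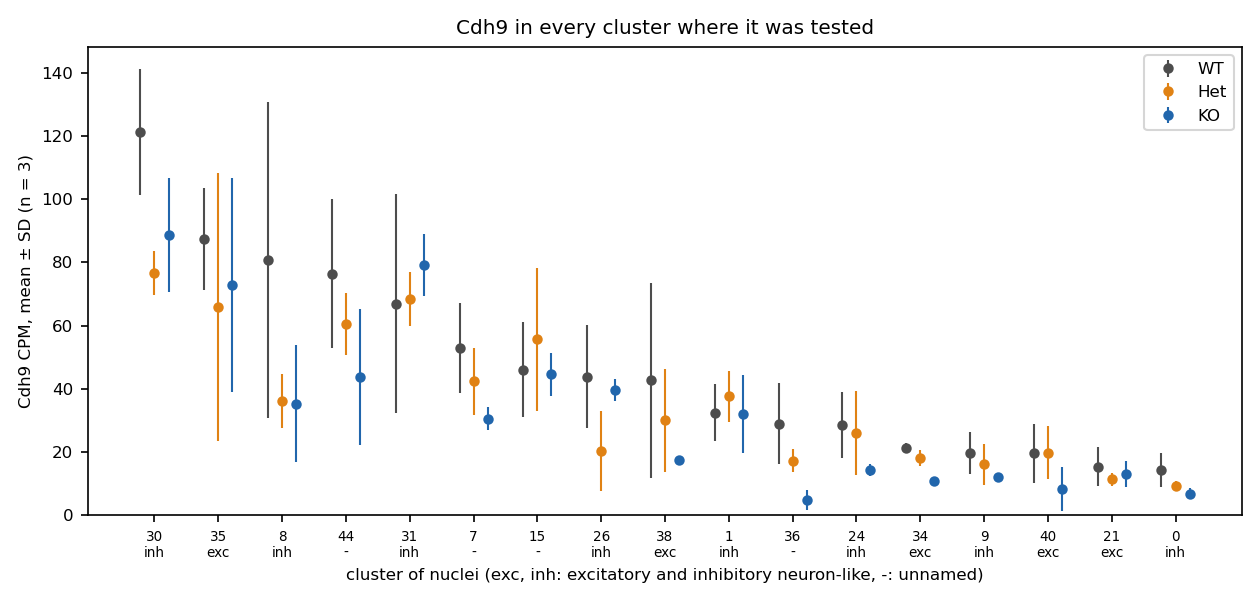
Cdh9 in the 17 clusters where it was tested, as mean CPM with SD over 3 animals of WT, Het and KO, ordered by the WT mean. In clusters 36 and 34 the KO mean (4.78 and 10.8 CPM) is separated from the WT mean (28.9 and 21.2 CPM), whereas in clusters 31, 35 and 1 the error bars overlap.

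Cdh13 rose in clusters 34 and 37. In cluster 34 it was at 3042, 3539 and 3250 CPM in WT 1 to 3, at 3525, 3786 and 3508 CPM in Het 1 to 3 and at 4027, 4154 and 4108 CPM in KO 1 to 3, which was 0.34 higher in KO on the log2 scale (SE 0.0809, adjusted p = 0.0418 by edgeR). The KO animals stood above all others. In cluster 37, excitatory neuron-like nuclei led by Ccbe1 and Ldb2 in which 2.09% of all genes were called, Cdh13 was at 2910, 3187 and 3050 CPM in WT 1 to 3, at 3594, 3655 and 3616 CPM in Het 1 to 3 and at 3359, 3818 and 3883 CPM in KO 1 to 3. Both mutant groups lay above WT, with a log2 change in KO of 0.31 (SE 0.0789, adjusted p = 0.0445). The change was positive in all 10 excitatory neuron-like clusters, from 0.025 to 0.34, and in both runs in both clusters (0.43 and 0.27 in cluster 34, 0.27 and 0.30 in cluster 37). The call in cluster 34 was lost without WT 1 (adjusted p = 0.148), WT 3 (0.147), Het 1 (0.0544), Het 2 (0.0575), Het 3 (0.0700) or KO 2 (0.135). That in cluster 37 was lost without WT 1 (0.191), WT 2 (0.0546), WT 3 (0.162), Het 2 (0.0637), Het 3 (0.0684), KO 2 (0.166) or KO 3 (0.102).

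Cdh11, which marks mesenchyme and some neuron groups, fell in cluster 37. It was at 333, 287 and 333 CPM in WT 1 to 3, at 287, 292 and 246 CPM in Het 1 to 3 and at 223, 245 and 232 CPM in KO 1 to 3. The KO animals lay below all others, with a log2 change of -0.40 (SE 0.101, adjusted p = 0.0378 in edgeR). The call was lost in DESeq2 (0.0832) and without WT 1 (0.112), WT 2 (0.0516), WT 3 (0.145), KO 1 (0.0851), KO 2 (0.0605) or KO 3 (0.122). In cluster 34 Cdh11 had 692 ± 19.1 CPM in WT and 575 ± 26.4 CPM in KO (SD, n = 3), which passed with the replicate block and not without it (log2 change -0.25, adjusted p = 0.0139).

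Cluster 35 showed a pair of type II cadherins moving in opposite directions, where 3.23% of all genes were called. Cdh10 was at 1413, 1740 and 1726 CPM in WT 1 to 3, at 1435, 1210 and 1468 CPM in Het 1 to 3 and at 1249, 1116 and 1023 CPM in KO 1 to 3. The KO animals lay below WT and overlapped 1 Het animal, and the log2 change was -0.51 (SE 0.109, edgeR adjusted p = 0.00751). The runs disagreed: pooled CPM was higher in KO in run 1 (log2 ratio 0.39, 242 UMIs in WT and 252 in KO) and lower in run 2 (-0.70, 2681 and 983 UMIs). The call was also lost without WT 2 (adjusted p = 0.0604) or KO 3 (0.0730). Cdh7 was at 100.1, 95.6 and 82.3 CPM in WT 1 to 3, at 91.2, 98.5 and 86.8 CPM in Het 1 to 3 and at 138, 137 and 151 CPM in KO 1 to 3, from 36 to 78 UMIs per animal. Its KO animals lay above all others, with a log2 change of 0.64 (SE 0.167, adjusted p = 0.0320) and log2 ratios of 0.75 in run 1 and 0.63 in run 2. The call was lost in DESeq2 (0.201) and without WT 1 (0.0578), WT 2 (0.0811), WT 3 (0.143), KO 1 (0.0632), KO 2 (0.0770) or KO 3 (0.152).

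In cluster 4, excitatory neuron-like nuclei led by Grin2a and Slit3 in which 0.797% of all genes were called, Cdh12 rose and Pcdh19 fell. Cdh12 was at 142, 137 and 112 CPM in WT 1 to 3, at 129, 135 and 158 CPM in Het 1 to 3 and at 231, 220 and 168 CPM in KO 1 to 3. The KO animals lay above all others, with a log2 change of 0.69 (SE 0.126, adjusted p = 0.00607 in edgeR) that was alike in the runs (0.68 and 0.68). Without WT 3 the adjusted p was 0.0598, and without KO 2 it was 0.0521. Pcdh19 was at 115, 112 and 109 CPM in WT 1 to 3, at 89.7, 84.6 and 74.6 CPM in Het 1 to 3 and at 75.2, 65.2 and 76.2 CPM in KO 1 to 3. Both mutant groups lay below WT, with a log2 change in KO of -0.61 (SE 0.114, adjusted p = 0.00739) and ratios of -0.73 and -0.58 in the runs. Without KO 2 the adjusted p was 0.0570. WT 3, the female, had the lowest WT value, and without it the call was kept.

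Fat3, a giant cadherin that shapes dendrites in the retina, rose in cluster 36. It was at 545, 488 and 519 CPM in WT 1 to 3, at 593, 537 and 611 CPM in Het 1 to 3 and at 605, 628 and 644 CPM in KO 1 to 3. The KO animals lay above WT and overlapped the Het animals, and the log2 change was 0.31 (SE 0.0755, edgeR adjusted p = 0.0352). It was 0.24 in run 1 and 0.30 in run 2. The call was lost without WT 1 (adjusted p = 0.0593), WT 2 (0.157), WT 3 (0.126), KO 1 (0.0756) or KO 2 (0.137). Fat3 was higher in KO in all 10 excitatory neuron-like clusters (log2 change 0.080 to 0.33), with no call there, and with the replicate block it was called in clusters 35 (adjusted p = 0.0470) and 37 (0.0122) as well.

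**Figure D4:**
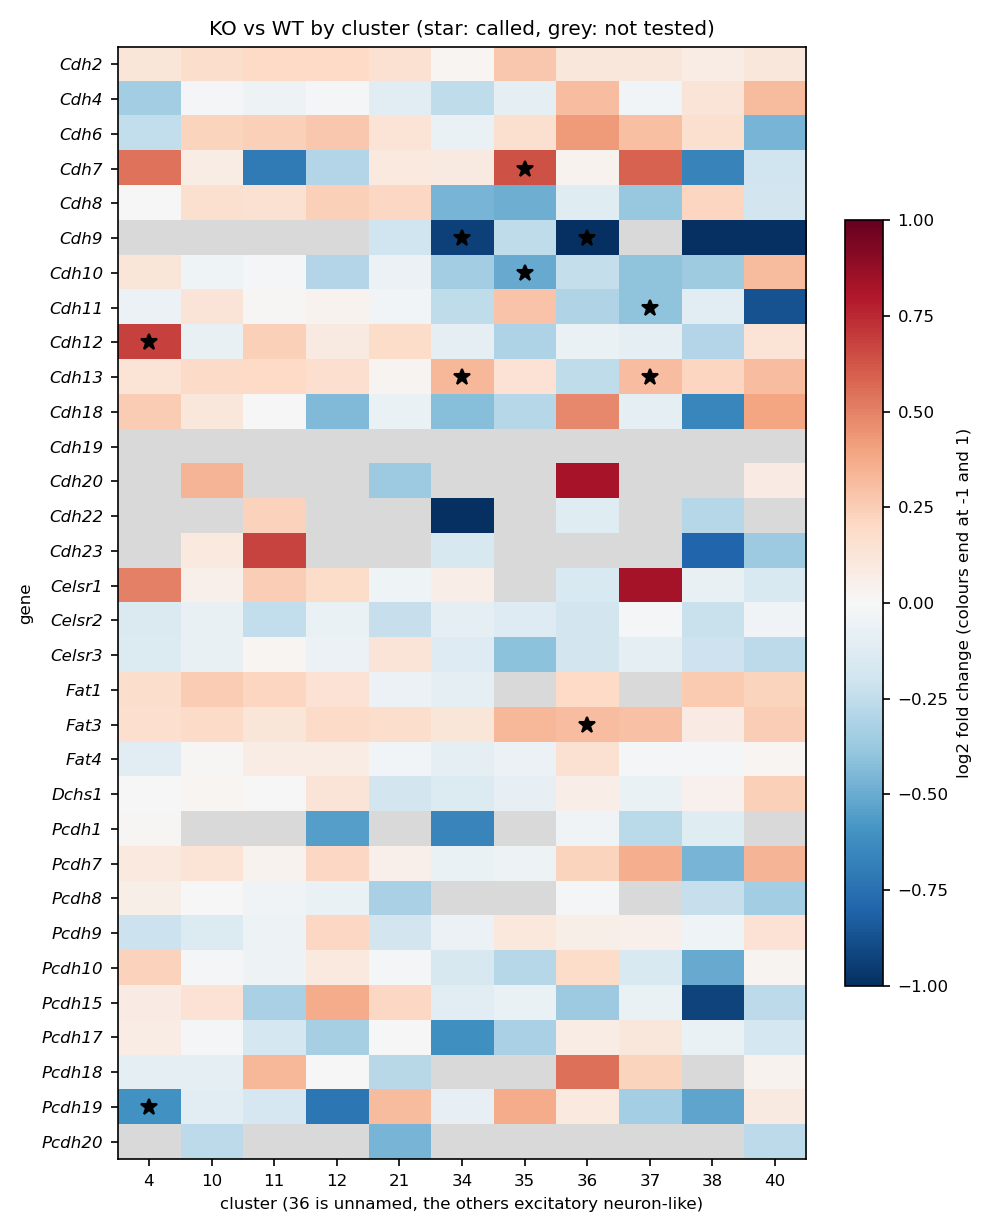
Log2 fold change of KO against WT for the 32 genes (rows) in 10 excitatory neuron-like clusters and the unnamed cluster 36 (columns), with stars for calls and grey for genes not tested. Cdh13 and Fat3 are positive in every excitatory neuron-like cluster, Cdh9 is negative in each of the 5 where it was tested, and Cdh7 and Pcdh19 change sign between clusters.

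Inhibitory neuron-like nuclei gave 0 of 32 members called in KO, where 0.0161% of all genes were called (edgeR, 4 of 32 members and 6.33% of all genes at an unadjusted p under 0.05). DESeq2 also called 0. The 3 members with the lowest p were Cdh9, Pcdh20 and Pcdh10. Cdh9 was at 44.3, 28.4 and 41.0 CPM in WT 1 to 3 and at 28.6, 26.0 and 29.9 CPM in KO 1 to 3, which overlapped (log2 change -0.39, SE 0.131, edgeR adjusted p = 0.619). Pcdh10 was at 145, 138 and 132 CPM in WT and at 118, 122 and 114 CPM in KO, with KO below WT (log2 change -0.20, SE 0.0764, adjusted p = 0.706). Pcdh20 was at 2.73, 3.22 and 2.86 CPM in WT and at 1.58, 1.62 and 2.34 CPM in KO, from 17 to 57 UMIs per animal (log2 change -0.63, SE 0.238, adjusted p = 0.704). The effect of KO in excitatory neuron-like nuclei was set against that in inhibitory neuron-like nuclei of the same animals, and no member differed past the threshold (for Cdh9 the log2 difference was -0.36, SE 0.143, limma adjusted p = 0.692).

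Cluster 28 was the inhibitory neuron-like cluster with a call, where 0.206% of all genes were called. Its nuclei were led by Drd2, the dopamine receptor of striatal indirect pathway neurons. Cdh8 was at 146, 173 and 171 CPM in WT 1 to 3, at 142, 158 and 145 CPM in Het 1 to 3 and at 117, 104 and 87.9 CPM in KO 1 to 3. The KO animals lay below all others, and the log2 change was -0.67 (SE 0.137, edgeR adjusted p = 0.0436). The runs disagreed here too, with a log2 ratio of 0.28 in run 1 (81 UMIs in WT and 82 in KO) and -1.04 in run 2 (375 and 176 UMIs). The call was lost without WT 2 (adjusted p = 0.185), WT 3 (0.213), Het 1 (0.0574), Het 2 (0.0518), Het 3 (0.0579), KO 2 (0.151) or KO 3 (0.230). With the replicate block Cdh8 was also called in cluster 0, inhibitory neuron-like nuclei led by Nxph2, Dgkg and Maf, at 179 ± 53.3 CPM in WT and 112 ± 16.7 CPM in KO (SD, n = 3, log2 change -0.64, adjusted p = 0.000615).

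**Figure D5:**
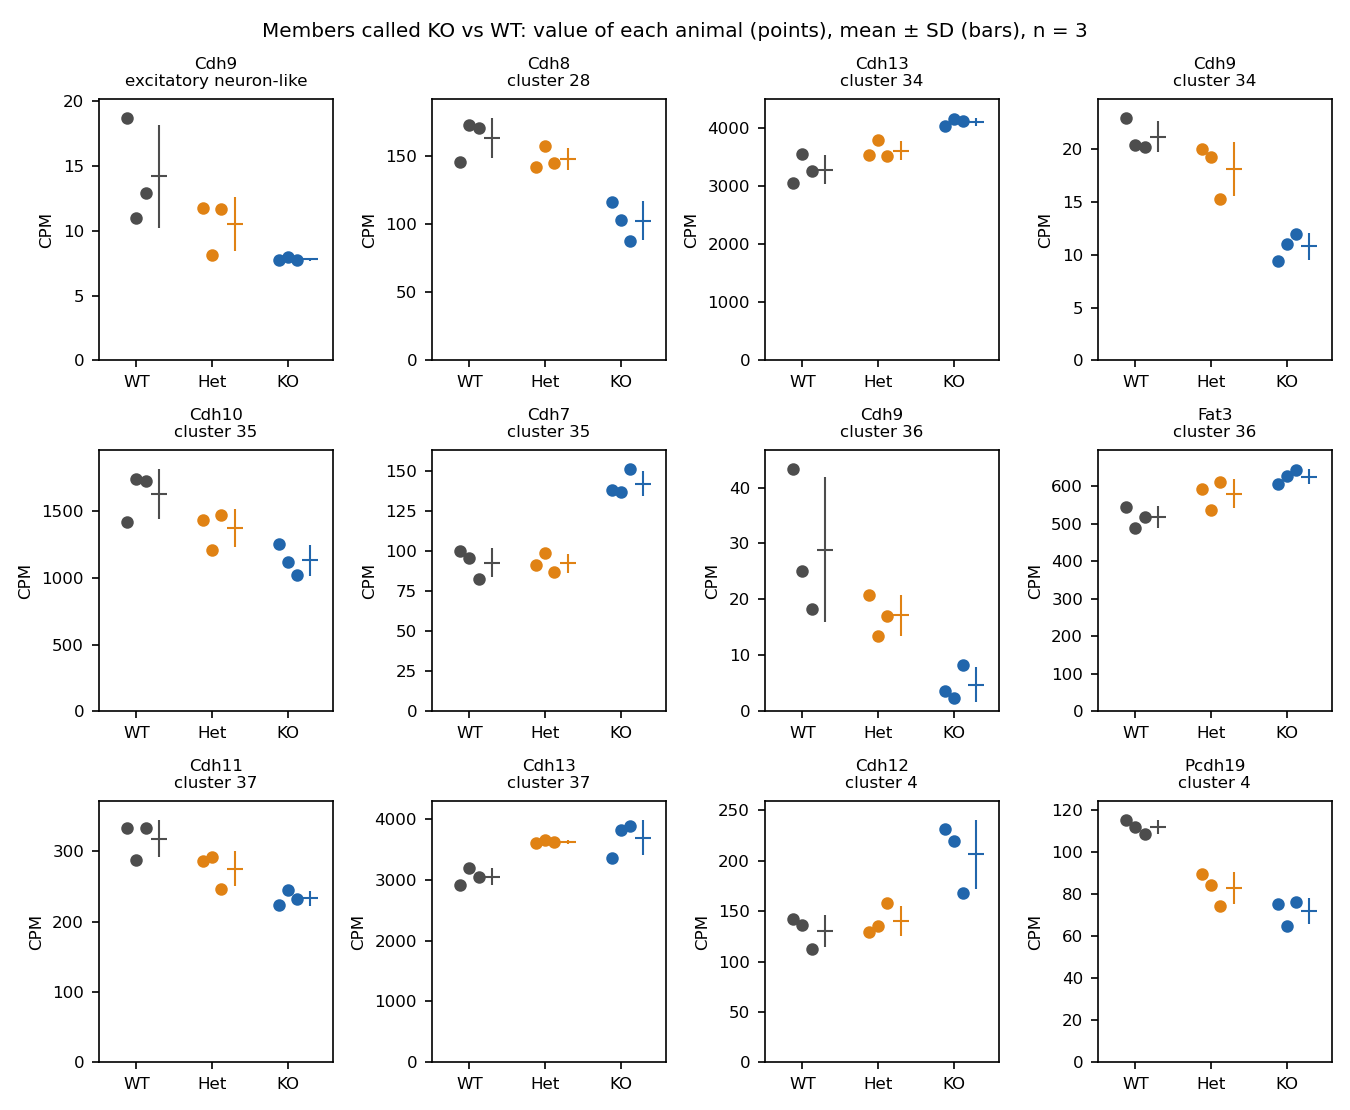
CPM of each animal (points) with mean and SD (bars, n = 3) in WT, Het and KO for the 12 combinations of gene and class or cluster called in KO against WT, each vertical axis starting at 0. In every panel the 3 KO animals lie outside the range of the 3 WT animals, and in cluster 4 the Het animals of Pcdh19 (74.6 to 89.7 CPM) lie below the WT animals as well.

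In Cajal-Retzius-like nuclei 23 members could be tested and 0 were called in KO, against 0.446% of all genes (edgeR, 4 of 23 members and 9.28% of all genes at an unadjusted p under 0.05, and DESeq2 also called 0). Pcdh9 was at 643, 410 and 539 CPM in WT 1 to 3, at 559, 365 and 442 CPM in Het 1 to 3 and at 386, 285 and 404 CPM in KO 1 to 3. Its KO animals lay below WT, with a log2 change of -0.55 (SE 0.158, adjusted p = 0.160) that passed with the replicate block (-0.55, SE 0.101, adjusted p = 0.00420), a fit that called 1.24% of all genes, and without WT 2 (-0.70, adjusted p = 0.0438). The runs disagreed, with a log2 ratio of 0.27 in run 1 and -0.62 in run 2. Cdh12 was at 143, 217 and 153 CPM in WT and 245, 278 and 214 CPM in KO, which overlapped (log2 change 0.50, SE 0.195, adjusted p = 0.373). Pcdh10 was at 71.9, 62.7 and 48.9 CPM in WT and 50.5, 37.4 and 40.5 CPM in KO, which also overlapped (log2 change -0.52, SE 0.200, adjusted p = 0.368). In the other 4 classes edgeR called 0% of all genes and 0 members, and DESeq2 called 0 members as well. An unadjusted p under 0.05 was found for 2 of 31 members in radial glia-like nuclei (2.98% of all genes) and for 0 of 30 in excitatory intermediate progenitor-like nuclei (3.31%). It was found for 2 of 24 members in the inhibitory progenitor-like class (3.32%) and 1 of 14 in cluster 46 (2.96%).

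The comparison of Het with WT shares the WT animals with the comparison above. No member was called in any of the 7 classes or 43 clusters, and edgeR called 0% of all genes in each class. An unadjusted p under 0.05 was found for 2 of 32 members in excitatory neuron-like nuclei (3.58% of all genes), 1 of 32 in inhibitory neuron-like (1.85%) and 2 of 23 in Cajal-Retzius-like nuclei (3.97%). DESeq2 called 0 members. In excitatory neuron-like nuclei the lowest p belonged to Cdh9 (log2 change -0.41, SE 0.171, adjusted p = 1.00), Celsr1 and Fat1. Celsr1 was at 36.9, 32.4 and 32.4 CPM in WT and 42.0, 38.1 and 36.3 CPM in Het, and Fat1 at 10.5, 7.61 and 9.48 CPM in WT and 13.1, 10.7 and 9.98 CPM in Het, both overlapping. In inhibitory neuron-like nuclei Cdh9 was at 25.9, 25.0 and 29.9 CPM in Het 1 to 3, overlapping the WT range given above (log2 change -0.46, SE 0.132, adjusted p = 1.00). Fat4 was at 58.6, 61.6 and 58.6 CPM in WT and 70.8, 61.8 and 67.4 CPM in Het, just apart, and Fat3 at 656, 570 and 562 CPM in WT and 666, 616 and 674 CPM in Het, which overlapped. With the replicate block 1 cluster call appeared, Cdh9 in cluster 30, at 121 ± 19.97 CPM in WT and a mean of 76.7 CPM in Het (log2 change -0.62, SE 0.1004, edgeR adjusted p = 0.0249), where 0.0143% of gene tests over all clusters were called. In KO, Cdh9 was at 88.7 ± 18.0 CPM in cluster 30 (SD, n = 3), between the Het and WT means. No member was called in KO in that cluster, with or without the block.

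In Cajal-Retzius-like nuclei of Het embryos the lowest p belonged to Cdh6, Cdh11 and Celsr3. Cdh6 was at 66.5, 46.7 and 24.5 CPM in WT 1 to 3 and 71.6, 125 and 85.9 CPM in Het 1 to 3, apart from WT, from 14 to 81 UMIs per animal (log2 change 0.98, SE 0.305, edgeR adjusted p = 1.00). Cdh11 was at 91.0, 80.8 and 93.9 CPM in WT and 109, 111 and 108 CPM in Het, also apart (log2 change 0.31, SE 0.146, adjusted p = 1.00). Celsr3 was at 102, 92.0 and 71.7 CPM in WT and 74.9, 71.3 and 68.4 CPM in Het, overlapping (log2 change -0.31, SE 0.166, adjusted p = 1.00). The rises of Cdh6 and Cdh11 were not seen in KO. There Cdh6 was at 66.5, 25.5 and 28.7 CPM in KO 1 to 3 and Cdh11 at 80.2, 85.4 and 72.3 CPM. Both overlapped WT, with means below the WT means (40.2 against 45.9 CPM and 79.3 against 88.6 CPM).

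Genes that work with cadherins were read from a list of 12 cytoplasmic partners (catenins and related proteins), 12 genes of planar polarity and of the Fat and Dachsous pathway, 3 nectins and 8 other genes of the family. In the 7 classes none of them was called in either direction in KO or Het. In excitatory neuron-like nuclei Ctnna1, the alpha-catenin that couples cadherin complexes to actin, had the lowest p (37.6 ± 1.64 CPM in WT and 44.3 ± 1.22 CPM in KO, SD, n = 3, log2 change 0.26, SE 0.0752, edgeR adjusted p = 0.135). Within clusters 5 of 1049 tests of these genes were called in KO (0.477%), against 0.295% of all gene tests, and 0 of 1049 in Het. An unadjusted p under 0.05 was found for 85 of these tests in KO (8.10%, against 6.25% of all gene tests) and for 42 in Het (4.00%, against 3.56%). Pcdh11x, an X-linked protocadherin, rose in clusters 34, 35 and 4, by 1.11 (SE 0.233, adjusted p = 0.0209), 1.97 (SE 0.319, adjusted p = 0.000519) and 0.97 (SE 0.230, adjusted p = 0.0440) on the log2 scale. In cluster 35 it was at 36.1, 14.9 and 11.9 CPM in WT 1 to 3 and at 84.02, 100.1 and 67.04 CPM in KO 1 to 3, and the KO animals lay above the WT animals. In cluster 34 it was at 28.2, 22.7 and 15.7 CPM in WT and 66.3, 49.2 and 32.4 CPM in KO, and in cluster 4 at 30.7, 36.2 and 36.1 CPM in WT and 104, 52.4 and 47.6 CPM in KO, again apart. WT 3, the female, had the lowest WT value in clusters 34 and 35. Without it the call was kept in cluster 35 (log2 change 1.70, edgeR adjusted p = 0.00404) and lost in clusters 34 (0.94, adjusted p = 0.0964) and 4 (1.00, adjusted p = 0.115). The call in cluster 35 was kept in all 9 leave-one-out fits, whereas it was lost in 3 in cluster 34 and in 6 in cluster 4, where the log2 change was 0.53 without KO 1 (adjusted p = 0.284). Ctnnd1, the p120 catenin that keeps cadherins at the membrane, rose in cluster 36 by 0.43 (SE 0.0963, adjusted p = 0.0160), and Prickle2, of planar polarity, fell there by 0.49 (SE 0.112, adjusted p = 0.0203). The Ctnnd1 call was lost without WT 3 or KO 2 (adjusted p = 0.0982 and 0.104), and the Prickle2 call without WT 2, WT 3, KO 2 or KO 3 (0.122, 0.0581, 0.0850 and 0.0594).

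Members also shared positions that their choice by symbol did not use. In GRCm38 with the GENCODE vM21 annotation, 5 type II cadherins lay on chromosome 15 in the order Cdh6 (chr15:13028701-13173675, minus strand), Cdh9 (chr15:16728756-16857094, plus), Cdh10 (chr15:18818947-19014236, plus), Cdh12 (chr15:20449265-21589533, plus) and Cdh18 (chr15:22549022-23474418, plus). Cdh9, Cdh10 and Cdh18 fell in excitatory neuron-like nuclei with the replicate block, a fit that called 6.49% of all genes. Without the block Cdh9 was called (edgeR adjusted p = 0.0379) and Cdh10 and Cdh18 were not (0.0560 and 0.238). With the block Cdh6 and Cdh12 were not called, with log2 changes of 0.071 (SE 0.0548, adjusted p = 0.533) and -0.13 (SE 0.0629, adjusted p = 0.269). Cdh9 overlaps 1 annotated gene on the other strand, Cdh13 overlaps 5 and Cdh12 overlaps 8 genes, and because no source used here says how strand was treated in counting, reads of these genes and their overlapping neighbours cannot be told apart.

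MYT1L is a zinc finger protein that binds AAGTT, and the bases in front of the start of 4 of the 9 members called in clusters are shown so that a match can be looked up in them. These 4 had RefSeq windows that lie, at least in part, outside the GENCODE gene. The windows of Cdh7, Cdh10 and Cdh12 lie within the gene and are not shown. Cdh7 has 1 AAGTT in 1 of its 3 windows, Cdh12 has 1 AACTT and Cdh10 has 0 matches. Cdh11 and Cdh13 were not matched. The sequences are from RefSeq (GRCm38.p6), 5′ to 3′ on the gene's strand, each up to 250 bases before the RefSeq start and shortened where GENCODE starts the gene earlier, with AAGTT or its reverse complement AACTT in capitals. The windows are Cdh8 (chr8:99416472-99416721, minus strand), Pcdh19 (chrX:133688994-133689243, minus), Fat3 (chr9:16502055-16502304, minus) and Cdh9 (chr15:16728665-16728755, plus).
Cdh8: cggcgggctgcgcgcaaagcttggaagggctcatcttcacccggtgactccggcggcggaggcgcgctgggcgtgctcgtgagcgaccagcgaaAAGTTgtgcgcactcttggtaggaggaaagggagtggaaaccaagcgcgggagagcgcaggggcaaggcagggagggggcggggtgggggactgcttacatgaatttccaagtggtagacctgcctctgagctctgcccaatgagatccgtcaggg
Pcdh19: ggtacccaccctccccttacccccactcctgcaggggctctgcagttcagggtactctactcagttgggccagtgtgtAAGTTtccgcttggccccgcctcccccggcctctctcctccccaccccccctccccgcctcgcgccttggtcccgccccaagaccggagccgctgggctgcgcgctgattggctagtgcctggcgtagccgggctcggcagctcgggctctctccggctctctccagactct
Fat3: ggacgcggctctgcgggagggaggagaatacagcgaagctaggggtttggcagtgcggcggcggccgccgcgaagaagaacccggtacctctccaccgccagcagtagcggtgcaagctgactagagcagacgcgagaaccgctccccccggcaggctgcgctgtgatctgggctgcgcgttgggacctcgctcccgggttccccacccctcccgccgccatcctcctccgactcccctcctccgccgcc
Cdh9: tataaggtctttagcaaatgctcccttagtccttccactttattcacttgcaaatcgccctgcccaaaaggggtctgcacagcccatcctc

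Cdh8 and Pcdh19 hold 1 match each in these windows, and Fat3 and Cdh9 hold no match. Of the 32 members 24 were in the RefSeq table, with 27 windows of 250 bases, and 10 of these 27 windows held AAGTT on either strand, against 35.3% of 32851 windows of all genes. The longer form AAAGTTT, again on either strand and itself containing AAGTT, was in 1 of the 27 windows (3.70%) and in 4.20% of all windows. A match is a string of letters and not a measured binding site.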

How the data were processed

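Nuclei of 9 forebrains (3 per genotype, E14) were measured in 2 runs, giving 18 libraries, and each animal's runs were summed. The authors mapped the reads to mm10 with the ScaleBio pipeline and deposited, per library, a matrix of estimated counts of UMIs per gene and barcode, in which 6.70 to 8.71% of entries were not whole numbers. How strand was treated and which annotation release was used: not given in the sources used here. The submitters' processing notes name Seurat 4.3.0, DESeq2 1.38.3 and Scanpy 1.12.0.

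Of 261143 barcodes, those with 300 to 3000 genes from 800 to 6000 UMIs were kept if mitochondrial genes took no more than 1% of UMIs and log genes divided by log UMIs reached 0.9, which 200916 did. The 5% of all barcodes in each library with the highest Scrublet scores were marked as doublets before these limits, and removing them left 194658 nuclei. Across libraries, 157 barcodes were shared by libraries of the same animal and 1716 by libraries of different animals. Nuclei were clustered (scanpy 1.11.5, Leiden resolution 2) without the 32 genes, Myt1l and sex-linked genes, and clusters were named by marker lists with a naming rule set after the data were seen. The study's own cell type names were not used here, so differences from it may come from the rebuilt names.

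Counts were summed per animal and class or cluster, rounded and tested with edgeR 4.0.16 (R 4.3.3) by the quasi-likelihood test after filterByExpr and TMM scaling, with genotype over all 9 animals. Genes were called at a log2 change beyond 0.2 with p under 0.05 after Benjamini-Hochberg adjustment over all genes tested. Named genes were those called and, in each of the excitatory, inhibitory and Cajal-Retzius-like classes, the 3 with the lowest p. Pcdh19, the genes called with the block or by DESeq2, and the cluster values described beside them were chosen after their values were seen. Differences between classes were tested with limma 3.58.1. The members, gene lists and tests were chosen with earlier results of these data known. The edgeR fit without the block was tested on simulated counts of the excitatory neuron-like class, with no replicate pairing and changes placed in well-counted genes. Clustering, naming, the block, DESeq2, limma and the fits per cluster were not simulated.

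The replicate numbers were taken to pair animals across genotypes. In excitatory neuron-like nuclei, deviations from the group means over 6411 genes correlated at 0.222 to 0.686 in 9 of 9 pairs with the same number and at -0.501 to 0.226 in 18 pairs with different numbers. Deviations within a group sum to 0, which by itself favours negative values between different numbers. Pairs numbered 1 correlated most (0.594 to 0.686). Numbers 2 and 3 were less clearly resolved, since WT 2 with Het 3 (0.226) lay above WT 3 with KO 3 (0.222). The labels do not say what the number shares. Alternatives were DESeq2 1.42.0, RLE factors, no filter on low counts, the replicate block, the 6 animals compared, each run alone, cluster standardisation and leaving out each animal. Each run's pooled CPM per cluster and the tests of differences between classes were added after seeing the data.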

Additional observations from a re-analysis of the deposited data

Results flagged for a closer look

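Cdh11 in Het against WT went in opposite directions in different classes, with every Het animal on one side of every WT animal in each. In excitatory neuron-like nuclei it was at 320, 318 and 316 CPM in WT 1 to 3 and at 304, 293 and 288 CPM in Het 1 to 3, a difference of -0.108 between the mean log2 values. In excitatory intermediate progenitor-like nuclei it was at 39.6, 39.3 and 38.3 CPM in WT and at 58.1, 44.7 and 40.1 CPM in Het, a difference of 0.287. In Cajal-Retzius-like nuclei it was at 91.0, 80.8 and 93.9 CPM in WT and at 109, 111 and 108 CPM in Het, a difference of 0.302. In KO it was at 80.2, 85.4 and 72.3 CPM there, which overlapped WT and was not raised. Such separation of Het from WT animals was common. Over the 43 tested clusters it was found in 7.67% of member tests and in 9.15% of all gene tests.

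The difference between classes was tested over all genes with limma and did not pass the correction. For excitatory neuron-like minus excitatory intermediate progenitor-like nuclei it was -0.37 (adjusted p = 0.929), and for excitatory neuron-like minus Cajal-Retzius-like nuclei -0.41 (adjusted p = 0.921). In Cajal-Retzius-like nuclei the log2 ratio of pooled CPM was -0.24 in run 1 and 0.40 in run 2.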

How the results depend on the processing

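Without a filter on low counts, 6 members were called in KO in excitatory neuron-like nuclei (1 with it), 2 in KO in Cajal-Retzius-like nuclei (0 with it), and 1 each in Het in inhibitory neuron-like (Cdh9) and Cajal-Retzius-like nuclei (Cdh6), where there were 0. The share of all genes called without the filter was 1.82% (1.33% with it), 0.455% (0.446%), 0.108% and 0.0448% (0 with it) in that order. In excitatory neuron-like nuclei in KO, DESeq2 called 3 (2.03% of all genes), the 6 animals alone 0 (0.735%), run 1 alone 0 (0 of all genes) and the replicate block 7 (6.49%). The replicate block called 1 member in Cajal-Retzius-like nuclei in KO (1.24% of all genes), 29 over all clusters in KO (11 without it, and 0.794% of gene tests against 0.295%) and 1 over all clusters in Het (0.0143%), and it changed the call of no other class. Leaving out 1 animal gave 0 to 1 members in KO in excitatory neuron-like nuclei (0 without WT 1, WT 3, Het 3 or KO 2) and 0 to 1 in Cajal-Retzius-like nuclei (1 without WT 2). In excitatory neuron-like nuclei Cdh9 was not called without KO 1 or KO 3 either, and without KO 1 the member called was Cdh10 (edgeR adjusted p = 0.0326). Over all clusters, leaving out 1 animal gave 3 to 13 in KO (3 without KO 2, 4 when WT 3 was left out, and 6 when either WT 1 or WT 2 was) and 0 to 1 in Het, the 1 being Pcdh7 in cluster 14 without WT 2. The share of all genes called moved too, from 0.374 to 2.01% in excitatory neuron-like nuclei, 0.0439 to 0.701% in Cajal-Retzius-like nuclei and, over all clusters in KO, 0.137% (without WT 3) to 0.289% (without Het 1), with 0.146% without KO 2. Of the named genes' values under the other settings, 354 kept their direction and side of the threshold, 54 lost it, 12 gained it and none turned its direction. All 54 losses fell on the 12 results called in KO, since the other named results had no call to lose. Among the called results, losses ran from 0 (11 kept) for Cdh9 in cluster 36 to 9 (8 kept) for Cdh9 in excitatory neuron-like nuclei. In run 1 alone, an alternative added after seeing the data, the ratio of pooled CPM turned to 0.28 for Cdh8 in cluster 28 and 0.39 for Cdh10 in cluster 35 in KO. In Cajal-Retzius-like nuclei it turned to 0.27 for Pcdh9 in KO and -0.24 for Cdh11 in Het. The causes were not tested. Run 1 held 37995 of the nuclei and run 2 156663, and genes with few UMIs, such as Cdh9 in cluster 36 (4 to 96 per animal), are limited by counting.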
